A study of Mus musculus with 12 samples.

Results

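The epidermal differentiation complex is a stretch of mouse chromosome 3 that holds the genes for most structural proteins of the cornified envelope. Its members were taken as every row of the deposited gene table whose symbol starts with Lce or Sprr, together with Flg, Flg2, Lor, Ivl, Rptn, Hrnr, Crnn and Tchhl1, with a summed raw count of at least 10 over the 12 libraries. Of 53 rows with such a symbol, 46 met that minimum, out of 46078 genes in the table. They carry 42 symbols, because the table splits Flg over several identifiers, of which 5 are members. Those 46 rows comprise 21 Lce rows, 13 Sprr rows, Lor, Ivl and 10 rows of S100 fused-type genes (Flg, Flg2, Hrnr, Rptn, Crnn and Tchhl1). In GENCODE M21 on GRCm38, 42 of the 46 have a position, all on chromosome 3 between 92080271 and 93471980, a span of 1391.7 kb.

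RNA was measured by sequencing of poly(A) libraries from the skin epidermis of newborn mice, in 4 genotype groups of 3 libraries. Every group carried K14-Cre, a Cre recombinase driven by the keratin 14 promoter, which is active in basal keratinocytes and their descendants in the epidermis and its appendages. The control group carried K14-Cre and no floxed gene. The Llgl cKO group also carried floxed alleles of Llgl1 and Llgl2 (K14-Cre/Llgl1/2 flox/flox), the mammalian homologues of the fly polarity gene lethal giant larvae. The Trp53 het group carried 1 floxed allele of Trp53 (K14-Cre/Trp53 +/flox), and the double mutant (Llgl cKO Trp53 het) combined Llgl1/2 flox/flox with the Trp53 +/flox allele under the same K14-Cre. The study design names 3 newborn mice per group. Sex, strain background and litter are not given in the sources used here. The tests set a difference between groups against the spread between these libraries.

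Keratinocytes leave the basal layer, flatten as they move outward and finally replace the plasma membrane with a cornified envelope. Involucrin is laid down early as a scaffold, loricrin becomes the main reinforcing protein, and the small proline-rich (Sprr) and late cornified envelope (Lce) proteins are joined to them by transglutaminases. The S100 fused-type proteins, filaggrin among them, are stored in granules of the uppermost living cells, bind keratin filaments and, in the case of filaggrin, are broken down to the amino acids that keep the stratum corneum moist. Several genes of the complex are known for induction after wounding and barrier defects, in particular those of the Sprr2 and Lce3 groups.

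Promoter sequence was available from RefSeq (GRCm38.p6) for 39 of the 42 symbols. The 6 promoters below belong to the members on which the results turn: Sprr2d, Ivl and Tchhl1, which passed the test, Crnn and Lor, which did not, and Sprr2h, of the same family as Sprr2d. Each line gives the 200 bases before the annotated start, 5′ to 3′ on the gene's own strand, and capitals mark matches to TATAAA and to the AP-1 consensus TGANTCA.
Sprr2d (chr3:92338940-92339139, plus strand): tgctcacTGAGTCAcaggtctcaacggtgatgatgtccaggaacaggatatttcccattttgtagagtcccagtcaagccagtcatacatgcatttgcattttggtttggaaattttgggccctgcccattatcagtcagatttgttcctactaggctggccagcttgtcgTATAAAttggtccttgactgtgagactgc
Sprr2h (chr3:92385485-92385684, plus strand): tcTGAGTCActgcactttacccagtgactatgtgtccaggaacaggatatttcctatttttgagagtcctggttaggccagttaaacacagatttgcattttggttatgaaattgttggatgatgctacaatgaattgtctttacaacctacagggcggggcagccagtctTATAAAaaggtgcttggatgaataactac
Ivl (chr3:92573736-92573935, minus strand): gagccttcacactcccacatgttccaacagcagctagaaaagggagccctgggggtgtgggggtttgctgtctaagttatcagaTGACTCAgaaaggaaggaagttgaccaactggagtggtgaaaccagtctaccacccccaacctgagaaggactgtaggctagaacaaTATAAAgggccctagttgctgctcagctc
Tchhl1 (chr3:93468554-93468753, plus strand): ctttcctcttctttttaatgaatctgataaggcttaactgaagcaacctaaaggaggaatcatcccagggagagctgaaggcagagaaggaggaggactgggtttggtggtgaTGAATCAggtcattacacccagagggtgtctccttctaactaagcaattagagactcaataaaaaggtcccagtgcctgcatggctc
Crnn (chr3:93144589-93144788, plus strand): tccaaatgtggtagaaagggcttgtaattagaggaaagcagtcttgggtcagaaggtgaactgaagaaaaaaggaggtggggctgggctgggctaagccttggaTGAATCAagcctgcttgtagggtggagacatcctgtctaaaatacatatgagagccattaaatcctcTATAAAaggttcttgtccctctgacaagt
Lor (chr3:92083143-92083342, minus strand): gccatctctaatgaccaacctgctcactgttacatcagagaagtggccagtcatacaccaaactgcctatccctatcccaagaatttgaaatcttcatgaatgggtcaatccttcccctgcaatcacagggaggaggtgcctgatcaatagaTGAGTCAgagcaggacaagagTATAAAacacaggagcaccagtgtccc

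In the promoters of Sprr2d, Sprr2h, Ivl, Crnn and Lor the TATAAA match began 27 to 29 bases before the start, at -29 in all but Lor, where it began at -27. The Tchhl1 window held no TATAAA. An AP-1 match began at -193 in Sprr2d, at -198 in Sprr2h, at -116 in Ivl, at -96 in Crnn, at -87 in Tchhl1 and at -48 in Lor. Over windows of 250 bases before the start, searched on both strands, TATAAA occurred in 18 of 39 members (46.2%) against 12.4% of 32851 RefSeq promoters. TGANTCA occurred in 15 of 39 (38.5%) against 6.75% of all. The AP-1 letters were unevenly spread among families: 6 of 8 Sprr2 promoters, both Sprr1 promoters, both of Lor and Ivl and 5 of 6 S100 fused-type promoters held them, and 0 of 20 Lce promoters did. CCACCC, a KLF-type motif, occurred in 20.5% of members against 28.1% of all, AACCNGTT, a Grainyhead motif, in 2.56% against 1.79%, and the p53 half-site in 10.3% against 7.13%. The motifs are descriptions of the letters in these windows. The Sprr2 promoters shared a median of 64.2% of their bases with each other (range 49.3% to 89.3%), the Lce1 promoters 63.6% (50.5% to 85.6%) and the Lce3 promoters 58.6% (55.1% to 83.7%).

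The libraries held 6738720 to 14509507 counted reads, and members took between 1.49% (the library labelled Trp53 het 3) and 3.14% (control 1) of them. Levels below are in CPM, read counts relative to the library's total, with totals scaled by edgeR's TMM method. The targeted gene Llgl2 checked the labels: control libraries held 86.7 ± 22.3 CPM (SD, n = 3) and Trp53 het libraries 90.9 ± 22.0, while Llgl cKO libraries held 8.35 ± 1.16 and double mutant libraries 8.51 ± 3.38. Llgl1 counts were higher in the Llgl groups by 0.79 on the log2 scale (edgeR adjusted p = 0.0072); counts per gene cannot separate the floxed exons from the rest. Trp53 averaged 79.2 CPM in Trp53 het and 77.3 in the double mutant, below the means of control (120.9) and Llgl cKO (118.1), but the library labelled Trp53 het 3 stood at 114.8 CPM, within the range of the control group, which goes against its label. Epidermal keratinocyte markers were abundant in all libraries, at a summed 58078 to 107365 CPM.

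Control 3 and the library labelled Trp53 het 3 stood apart in the members. Each was the lowest of its group in 34 of the 40 members tested and in 14 of 14 Lce1 genes. The library labelled Trp53 het 3 was the lowest of all 12 libraries in 22 members, and control 1 was the highest of all 12 in 22. Summed fibroblast markers were 143 CPM in control 3 and 139 in the library labelled Trp53 het 3, against 27.8 to 57.4 in the other libraries of those groups, and summed hair shaft and inner root sheath markers were lowest there (1684 and 2442 against 4972 to 7587 CPM). The part of these values in the results was not tested, and values without the 2 libraries are given where a call or a direction differs. Both libraries are in the groups with intact Llgl. Leaving them out raises that side in the members where they were lowest, which favours lower calls and works against higher ones. Values without them are therefore not separate support for a change.

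**Figure D1:**
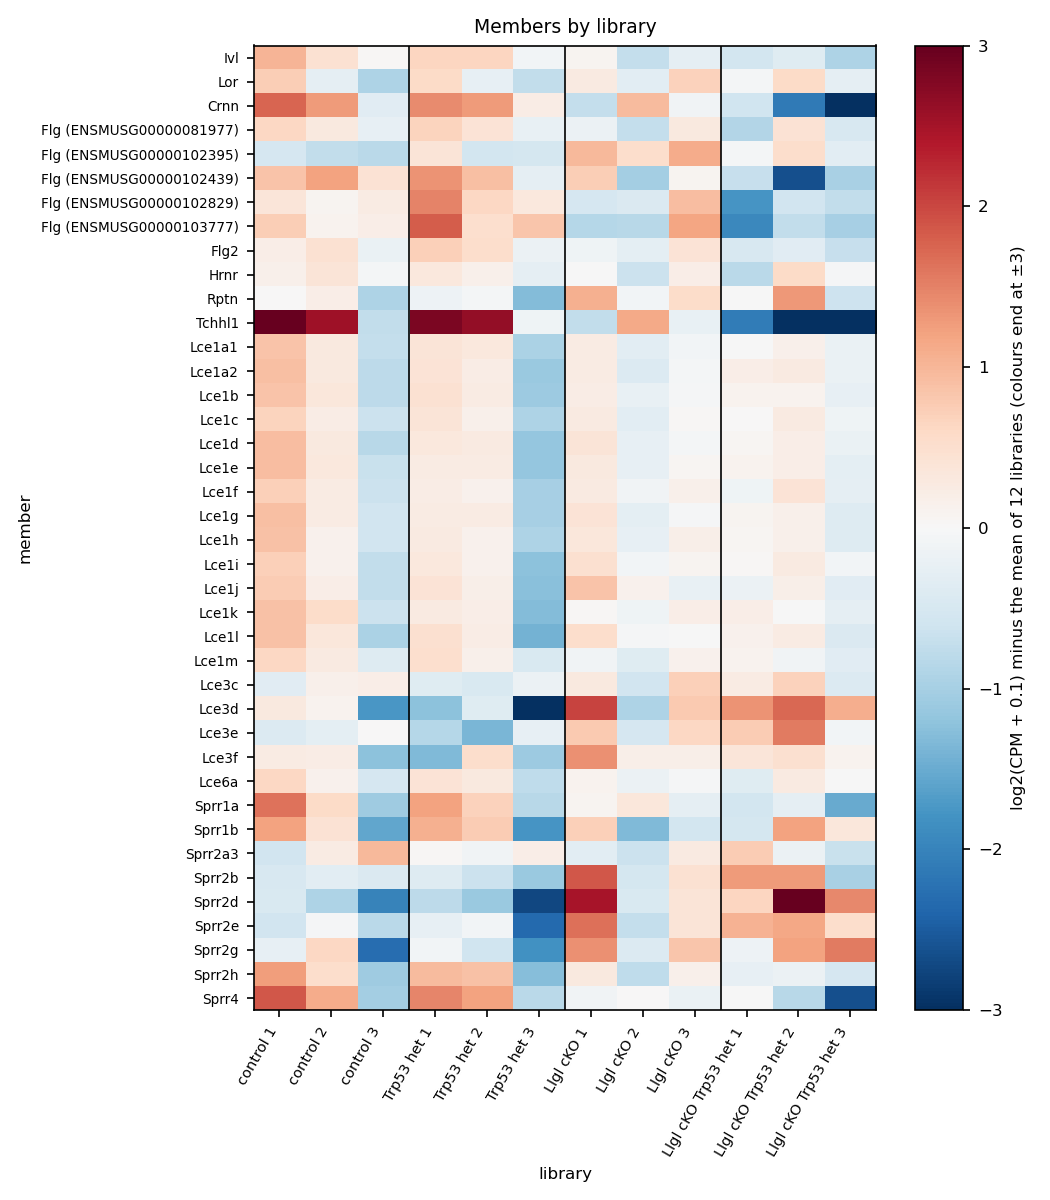
Heat map of the 40 tested members (rows, grouped by family) in the 12 libraries (columns). Colour is log2(CPM + 0.1) minus the member's mean over the 12 libraries; the Lce1 rows are pale blue to dark blue in control 3 and the library labelled Trp53 het 3, and the Sprr2d, Lce3d, Sprr2e and Sprr2b rows are mostly red in the Llgl cKO and double mutant columns.

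The main question was what loss of Llgl did to the complex, taken as the average of its effect with and without the floxed Trp53 allele, 6 libraries against 6. In that average, Tchhl1 was 15.4-fold and the involucrin gene Ivl 1.90-fold lower, Sprr2d was 8.42-fold higher, and 1 of the 5 Flg rows was 1.88-fold higher. These 4 of 40 tested members passed an adjusted p below 0.05 (edgeR quasi-likelihood test with Benjamini-Hochberg adjustment over all 14582 genes tested), against 3.33% of all genes, with 2 higher (1.18% of all genes) and 2 lower (2.15% of all genes). At an unadjusted p below 0.05 the count was 17 of 40, against 18.2% of all genes. The median change of the 40 was -0.11 on the log2 scale, and that of all genes was -0.0026. The 14 Lce1 genes and Lor did not pass. When each of the 12 libraries was left out in turn, the call was lost in 8 cases for Tchhl1 and 10 for Ivl. It was lost in 9 for Sprr2d and 6 for the Flg row. Within either Trp53 genotype, 0 of 40 members were called.

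**Figure D2:**
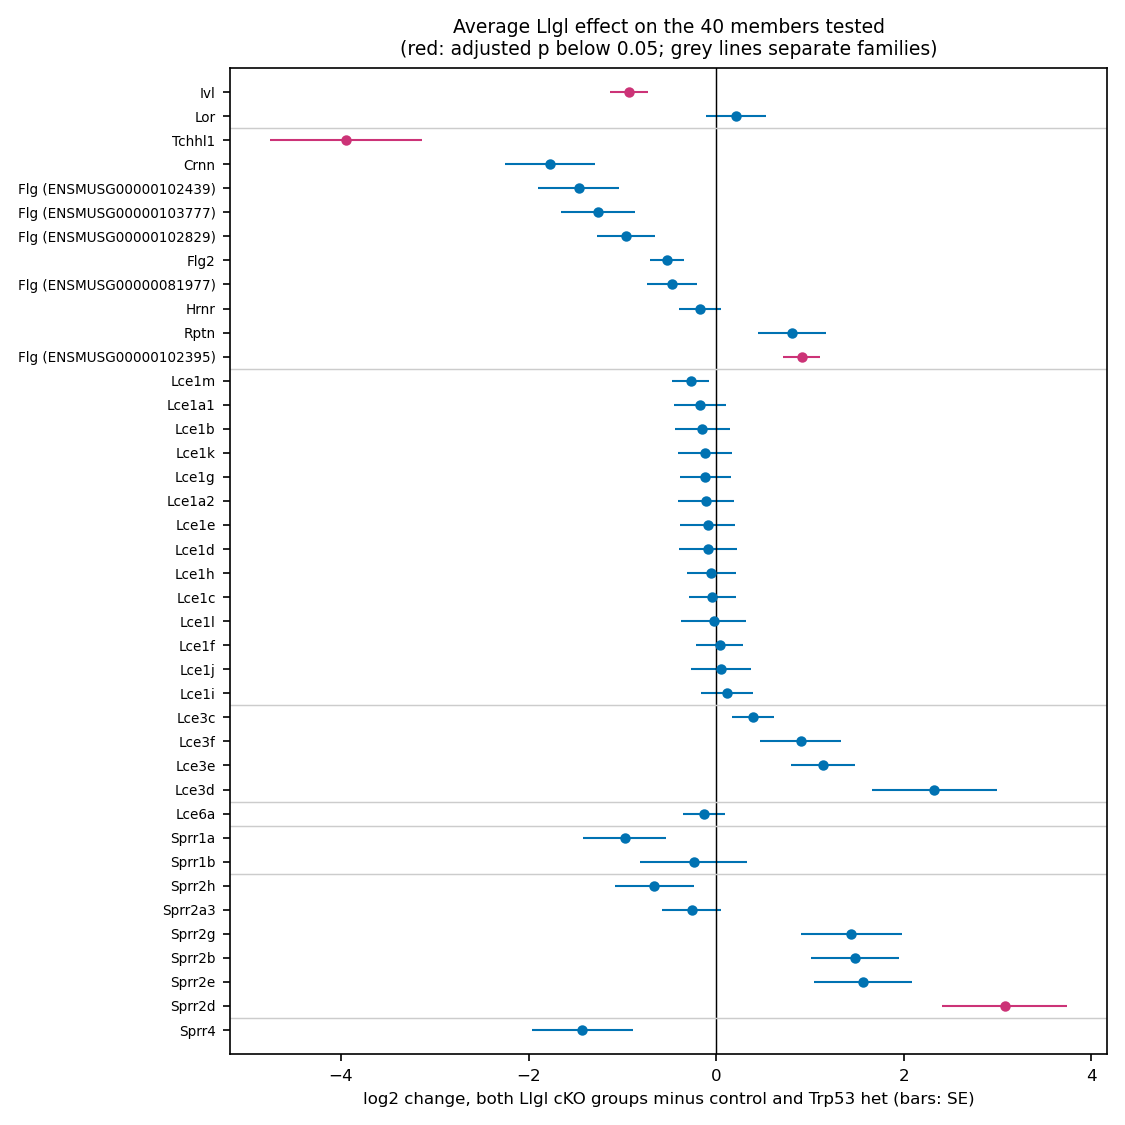
Log2 change of each of the 40 tested members in the average Llgl effect, with bars of 1 SE, ordered by family, members that passed the test in red. Tchhl1 lies farthest to the left at -3.94 and Sprr2d farthest to the right at 3.07, while the 14 Lce1 genes lie between -0.27 and 0.11.

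Ivl encodes involucrin, the early scaffold of the envelope. Its levels were 916, 625 and 465 CPM in the control libraries and 706, 715 and 432 in Trp53 het, against 478, 275 and 377 in Llgl cKO and 311, 355 and 241 in the double mutant. All Llgl libraries but 1, Llgl cKO 1, were below every library with intact Llgl. The average change was -0.93 (SE 0.21, adjusted p = 0.032). It was -1.13 (adjusted p = 0.0014) without control 3 and the library labelled Trp53 het 3, the pair in which Ivl was lowest of its group. The call was lost on leaving out, 1 at a time, each of 10 of the 12 libraries, all but control 3 and the library labelled Trp53 het 3 (-1.03 to -0.79, adjusted p up to 0.090).

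Lor encodes loricrin and had the highest level per kb of exon of all members with a gene model, a mean of 4750 CPM per kb over the 12 libraries against 1761 for Lce1m, the next. Its levels were 13126, 6595 and 4159 CPM in control and 11699, 6629 and 4749 in Trp53 het, against 9483, 6390 and 12687 in Llgl cKO and 7584, 11736 and 6571 in the double mutant. The groups overlapped throughout. The change was 0.21 with a 95% interval of -0.48 to 0.90 (adjusted p = 0.77), and its sign turned (-0.07) without control 3 and the library labelled Trp53 het 3.

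Among the S100 fused-type genes, 8 of 10 rows were lower and 2 higher, 2 passing the test (against 3.33% of all genes), with a median of -0.74. Of these rows 5 belong to the same gene, Flg, so they are not separate genes. With its rows summed, Flg changed by -0.42 (edgeR adjusted p = 0.43). Tchhl1, trichohyalin-like 1, is a neighbour and relative of the hair protein gene Tchh. Its levels were 157, 72.3 and 7.42 CPM in control and 88.4, 77.6 and 11.4 in Trp53 het, against 7.42, 27.5 and 10.7 in Llgl cKO and 2.83, 0.512 and 0.419 in the double mutant. The 3 double mutant libraries were below all others, while Llgl cKO overlapped control through control 3. The average change was -3.94 (SE 0.81, adjusted p = 0.026). The call was lost on leaving out any 1 of 8 libraries, all but control 3, Llgl cKO 2, the library labelled Trp53 het 3 and double mutant 1 (-3.97 to -3.46, adjusted p up to 0.080). Hair shaft and inner root sheath markers moved with it: 13 of 16 tested were called lower, against 2.15% of all genes. Their summed level was 1684 to 7587 CPM in control and 2442 to 6141 in Trp53 het, against 1147 to 3770 in Llgl cKO and 153 to 528 in the double mutant. The part of hair cells in the Tchhl1 result was not tested, and in bulk tissue fewer cells of a type and less RNA per cell cannot be told apart.

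Crnn encodes cornulin, a marker of late differentiation. It stood at 91.7, 65.8 and 21.6 CPM in control and 72.7, 66.7 and 31.9 in Trp53 het, against 16.7, 53.1 and 25.5 in Llgl cKO and 17.9, 6.23 and 3.27 in the double mutant. The double mutant libraries were below all libraries with intact Llgl, and Llgl cKO overlapped them. Its average change of -1.77 (SE 0.48) missed the threshold (adjusted p = 0.074) and passed it without control 3 and the library labelled Trp53 het 3 (-2.11, adjusted p = 0.017), with the replicate number as a block (-1.70, adjusted p = 0.024) and with DESeq2 (-1.78, adjusted p = 0.016).

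Filaggrin, the product of Flg, aggregates keratin filaments. The table splits its reads: the row ENSMUSG00000081977 held 1182 to 3444 CPM per library, and the other 4 member rows held from 0.171 to 214. The row that rose, ENSMUSG00000102395, stood at 69.3, 59.8 and 56.1 CPM in control and 130, 67.3 and 68.7 in Trp53 het, against 194, 143 and 214 in Llgl cKO and 94.7, 142 and 78.9 in the double mutant, a change of 0.91 (SE 0.20, adjusted p = 0.032). Its call was lost without control 1, control 2, Llgl cKO 1, Llgl cKO 3, Trp53 het 2 or double mutant 2 (0.77 to 0.95, adjusted p up to 0.091). The remaining rows had changes of -0.47 to -1.47 and did not pass (adjusted p 0.091 to 0.39). With DESeq2, ENSMUSG00000102439 (-1.49, adjusted p = 0.020), ENSMUSG00000103777 (-1.26, adjusted p = 0.018) and ENSMUSG00000102829 (-0.96, adjusted p = 0.038) passed. Only ENSMUSG00000102439 is the Flg gene of GENCODE M21, and the other identifiers have no position there. With all rows of the symbol summed, the libraries held 3486, 2774 and 1928 CPM in control and 3727, 3014 and 2010 in Trp53 het, against 2148, 1486 and 2985 in Llgl cKO and 1290, 3098 and 1657 in the double mutant. The summed gene changed by -0.42 (SE 0.26, adjusted p = 0.43), so the call belongs to that row and not to the summed gene.

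Of the other granule proteins, Flg2 (filaggrin-2) was 1401, 1697 and 1063 CPM in control and 2021, 1772 and 1082 in Trp53 het, against 1127, 1004 and 1628 in Llgl cKO and 874, 976 and 755 in the double mutant, a change of -0.53 (adjusted p = 0.15). The 3 double mutant libraries and Llgl cKO 2 lay below all libraries with intact Llgl. Hrnr (hornerin) changed by -0.17 (adjusted p = 0.74), with libraries from 1164 to 3033 CPM and overlap between all groups. Rptn (repetin) was 95.4 to 207 CPM in control and 73.3 to 174 in Trp53 het, against 172 to 380 in Llgl cKO and 118 to 446 in the double mutant, a change of 0.81 (adjusted p = 0.27).

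**Figure D3:**
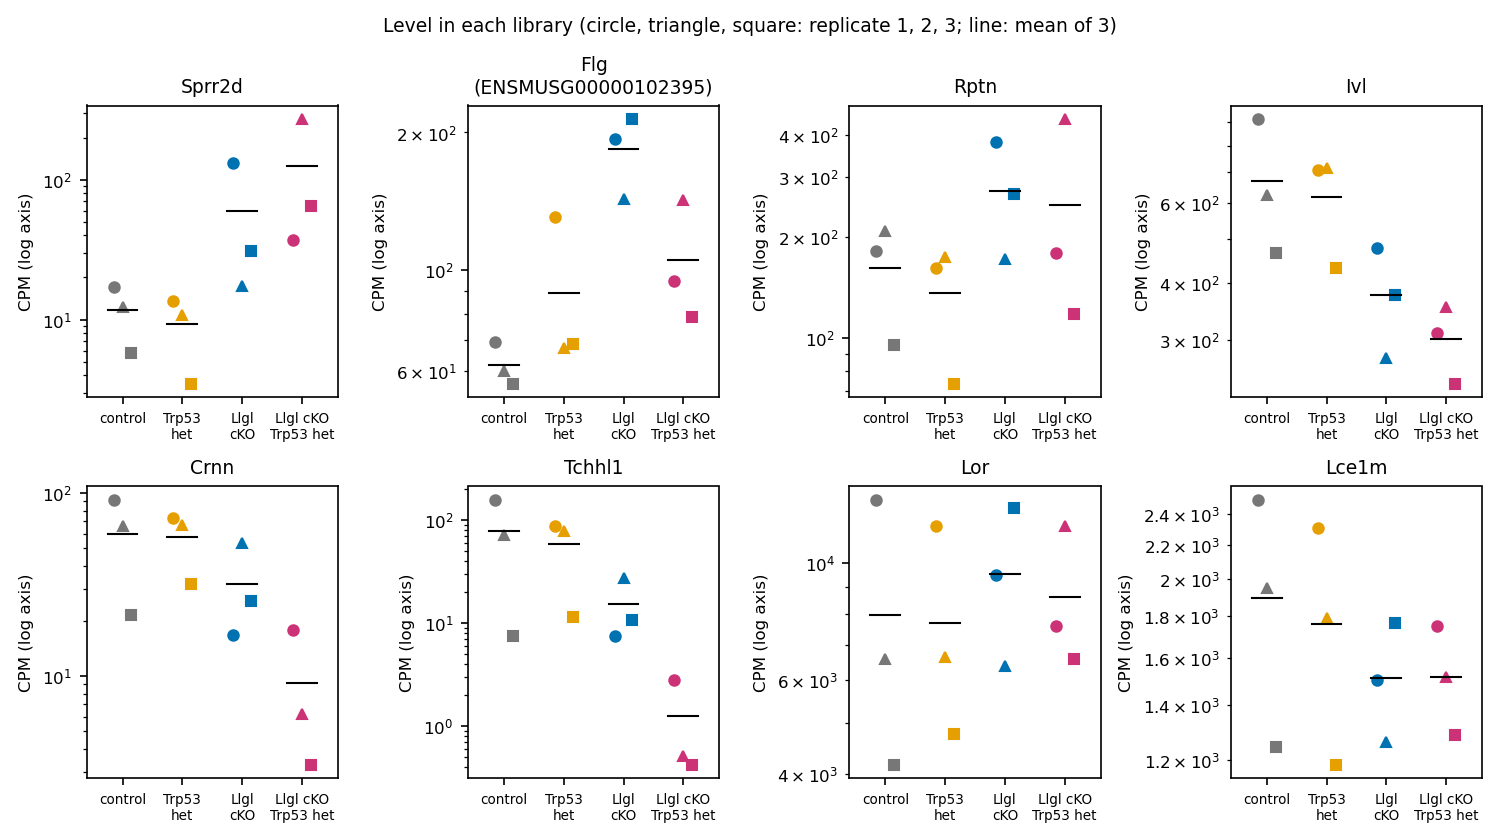
CPM on a log axis of 8 members in each library, by genotype group, with the symbol shape giving the replicate number and a line at the mean of 3. Ivl, Crnn and Tchhl1 are lower in the 2 Llgl groups, Sprr2d is higher with no overlap, and the spread of Lor and Lce1m within a group exceeds the distance between groups.

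The Lce genes encode small proteins added late to the envelope. All 14 Lce1 genes passed the count filter, and 0 passed the test in the average Llgl effect (0 at an unadjusted p below 0.05): 3 were higher and 11 lower, with changes of -0.27 to 0.11 and a median of -0.09. The summed Lce1 level was 11575, 8107 and 4321 CPM in control and 8850, 7728 and 3610 in Trp53 het, against 7814, 5547 and 6842 in Llgl cKO and 7044, 7427 and 5633 in the double mutant. The range within each group with intact Llgl exceeded the distance between group means. Lce1m, the highest of them per kb, was 1242 to 2500 CPM in control and 1182 to 2312 in Trp53 het, against 1261 to 1763 in Llgl cKO and 1285 to 1749 in the double mutant, a change of -0.27 with a 95% interval of -0.71 to 0.16 (adjusted p = 0.52). Without control 3 and the library labelled Trp53 het 3, Lce1m (-0.50, adjusted p = 0.036), Lce1a1 (-0.49, adjusted p = 0.038), Lce1b and Lce1k were called lower. Lce1a1 and Lce1a2 changed by -0.17 and -0.11 with all libraries and turned positive without control 1. Lce6a changed by -0.13 (adjusted p = 0.81). Between 72.9% and 100% of the 50-base words of the Lce1 transcripts occur in no other gene, so some of their reads can be shared among copies.

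The 4 Lce3 genes tested were all higher, with a median change of 1.02, and 0 passed in edgeR with all libraries. They are low genes: Lce3c was 12.2 to 29.9 CPM over the 12 libraries, and the others were at 0 to 7.26. Lce3d was 0.981, 0.850 and 0.161 CPM in control and 0.277, 0.581 and 0 in Trp53 het, against 3.50, 0.364 and 1.41 in Llgl cKO and 2.12, 2.82 and 1.76 in the double mutant. All Llgl libraries but Llgl cKO 2 exceeded every library with intact Llgl (change 2.33, adjusted p = 0.082). Lce3e changed by 1.14 (adjusted p = 0.096), Lce3f by 0.90 (adjusted p = 0.29) and Lce3c by 0.39 (adjusted p = 0.40). With DESeq2, which called 5.83% of all genes, Lce3d (2.28, adjusted p = 0.015) and Lce3e (1.15, adjusted p = 0.033) passed. In edgeR, Lce3d also passed without Llgl cKO 2, the Llgl library in which it was lowest (2.56, adjusted p = 0.039). Between 50.7% and 87.9% of the 50-base words of the 6 Lce3 transcripts occur in no other gene, so their reads can be shared among copies.

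The Sprr proteins are cross-bridging elements of the envelope, and 1 of 9 tested Sprr genes, Sprr2d, passed the test, against 3.33% of all genes. Sprr2d was 17.2, 12.3 and 5.80 CPM in control and 13.6, 10.8 and 3.46 in Trp53 het, against 131, 17.3 and 30.7 in Llgl cKO and 37.1, 272 and 64.6 in the double mutant. It was the 1 member in which no library overlapped across Llgl status, against 2.5% of all genes, and the gap was narrow, from 17.2 CPM in control 1 to 17.3 in Llgl cKO 2. The change was 3.07 (SE 0.67, adjusted p = 0.032), and the highest libraries of the 2 Llgl groups stood at 131 and 272 CPM. Its call was lost on leaving out any 1 of 9 libraries, all but Llgl cKO 2, Llgl cKO 3 and double mutant 1 (2.41 to 3.29, adjusted p up to 0.091), and without control 3 and the library labelled Trp53 het 3 together (2.69, adjusted p = 0.084). Of its transcript, 95.7% of 50-base words are found in no other gene.

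Of the other Sprr2 genes, Sprr2b (1.48, adjusted p = 0.12), Sprr2e (1.57, adjusted p = 0.13) and Sprr2g (1.44, adjusted p = 0.18) were higher without passing, at levels of 0.0753 to 9.55 CPM. Sprr2b passed with DESeq2 (1.48, adjusted p = 0.030). Llgl cKO 1 was highest in its group for 5 of the 6 Sprr2 genes tested and Llgl cKO 2 lowest for all 6. Sprr2h, the second most abundant, was 68.5, 41.4 and 13.6 CPM in control and 55.4, 53.3 and 11.9 in Trp53 het, against 35.3, 16.9 and 31.8 in Llgl cKO and 24.2, 25.6 and 20.3 in the double mutant. Its estimated change was opposite in sign to that of Sprr2d and did not pass (-0.66, adjusted p = 0.45). Without control 3 and the library labelled Trp53 het 3, the lowest of their groups for Sprr2h, it was -1.09 (adjusted p = 0.0052). That value is not separate support for the direction. The promoters of Sprr2d and Sprr2h carry the same TATAAA and TGAGTCA matches at nearly the same distance (the sequences shown above). Sprr2a3 changed by -0.26.

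Sprr1a, the more abundant Sprr1 gene, was 793, 384 and 123 CPM in control and 598, 414 and 146 in Trp53 het, against 271, 324 and 214 in Llgl cKO and 175, 214 and 91.1 in the double mutant. The change was -0.98 (adjusted p = 0.27), and the groups overlapped because control 3 and the library labelled Trp53 het 3 lay low (-1.39, adjusted p = 0.0058 without them). Sprr1b changed by -0.24 (adjusted p = 0.87). Sprr4 was 99.9, 59.3 and 13.5 CPM in control and 76.2, 63.2 and 15.6 in Trp53 het, against 25.8, 27.8 and 24.0 in Llgl cKO and 27.2, 15.4 and 4.35 in the double mutant. Its change of -1.43 (adjusted p = 0.19) became -1.88 (adjusted p = 0.013) without the same pair. Sprr1a and Sprr4 were both lowest of their groups in that pair, so values without it are not separate support for a lower level.

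The 6 members below the count filter of the test were Sprr2a1, Sprr2f, Sprr2i, Sprr2j-ps, Lce3a and Lce3b, with 0 to 23 reads per library. The highest of these counts, 23 for Sprr2f and 22 for Sprr2i, were in Llgl cKO 1. Only 3.72% of the 50-base words of Sprr2a1 are unique, so its low count need not be a low level.

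Without control 3 and the library labelled Trp53 het 3, 14 of 41 tested members were called in the average Llgl effect, 2 higher (Flg row ENSMUSG00000102395 and Lce3e) and 12 lower, against 15.8% of all genes in that fit. The libraries left out were the lowest of their groups in most members, so this count leans toward lower calls. Ivl, Tchhl1, Crnn, Flg2, Flg row ENSMUSG00000102439, Sprr1a, Sprr2h, Sprr4, Lce1m, Lce1a1, Lce1b and Lce1k were the 12. Flg2 (-0.72, adjusted p = 0.0080), Flg row ENSMUSG00000102439 (-1.75, adjusted p = 0.014) and Lce3e (1.40, adjusted p = 0.037) passed there and not in edgeR with all libraries. Sprr2d was not called there.

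The Llgl effect was also taken within each Trp53 genotype. In Llgl cKO against control, 0 of 40 members were called, against 0.226% of all genes, and 4 had an unadjusted p below 0.05 (6.31% of all genes). The members with the smallest p were Flg row ENSMUSG00000102395 (1.58, adjusted p = 0.062), Ivl (-0.83, adjusted p = 0.61), Sprr2d (2.38, adjusted p = 0.69) and Tchhl1 (-2.37, adjusted p = 0.75). The groups did not overlap for 2 members, the Flg row and Sprr2d, against 9.8% of all genes. DESeq2 called 1 member, the Flg row, against 0.668% of all genes with an adjusted p.

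In the double mutant against Trp53 het, again 0 of 40 were called, against 1.36% of all genes, while 14 had an unadjusted p below 0.05 (15.4% of all genes). Tchhl1 changed by -5.52 (adjusted p = 0.061), Crnn by -2.63 (adjusted p = 0.099), Ivl by -1.03 (adjusted p = 0.11), Sprr2d by 3.77 (adjusted p = 0.087) and Lce3d by 3.16 (adjusted p = 0.14). The groups did not overlap for 11 members, against 20.4% of all genes: 4 higher (9.75% of all genes; Sprr2d, Sprr2e, Lce3d and Lce3e) and 7 lower (10.7% of all genes; Ivl, Crnn, Tchhl1, Flg2 and Flg rows ENSMUSG00000102439, ENSMUSG00000103777 and ENSMUSG00000102829). The Flg rows named belong to the same gene, whose summed change was -0.53 (edgeR adjusted p = 0.55). DESeq2 called 10 members, against 4.33% of all genes with an adjusted p.

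**Figure D4:**
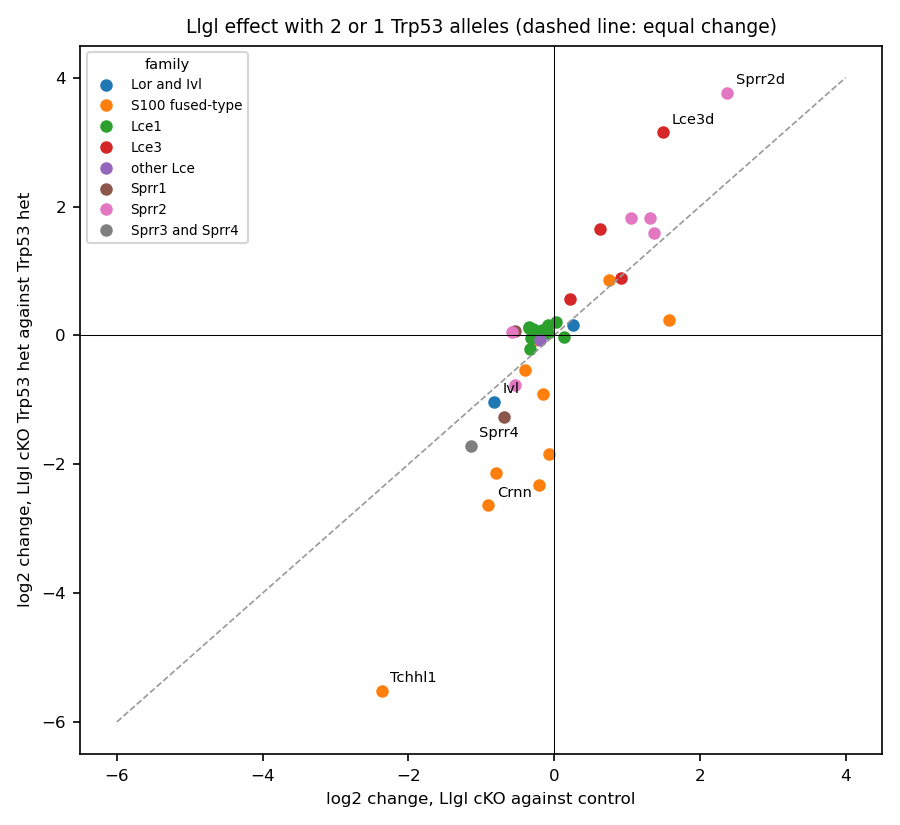
Log2 change of the 40 tested members in Llgl cKO against control (horizontal) and in the double mutant against Trp53 het (vertical), coloured by family, with a dashed line of equal change. Tchhl1 (-2.37 and -5.52) and Crnn (-0.90 and -2.63) lie below the line and Sprr2d (2.38 and 3.77) and Lce3d (1.49 and 3.16) above it; the difference did not pass its own test for any member.

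The difference between these 2 effects was tested as an interaction, and 0 of 40 members passed (0% of all genes, edgeR), with 3 at an unadjusted p below 0.05 against 2.94% of all genes. All 3 were Flg rows: ENSMUSG00000102395 (-1.33), ENSMUSG00000102829 (-1.76) and ENSMUSG00000103777 (-2.12), each with adjusted p = 1.00. These rows belong to the same gene, and with all rows of the symbol summed the interaction was -0.23 (edgeR unadjusted p = 0.67). Tchhl1 had an interaction of -3.15 and Crnn of -1.73, neither past an unadjusted p of 0.05. DESeq2 also called 0.

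The double mutant against control, which holds both changes, again gave 0 of 40 calls, against 1.25% of all genes, with 12 members at an unadjusted p below 0.05 (13.9% of all genes). Tchhl1 changed by -5.93 (adjusted p = 0.053), Ivl by -1.15 (adjusted p = 0.092), Crnn by -2.69 (adjusted p = 0.10) and Sprr2d by 3.44 (adjusted p = 0.12). The groups did not overlap for 11 members, against 17.1% of all genes. All 14 Lce1 genes were lower, by 0.06 to 0.39 on the log2 scale, with 0 past the test and a median of all genes of -0.0059. Control 1 was the highest of all 12 libraries in 13 of these 14.

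Loss of the Trp53 allele by itself was compared last. The library labelled Trp53 het 3 enters the comparison with control and the average Trp53 effect, and not the levels of the double mutant against Llgl cKO. In Trp53 het against control, 0 of 40 members were called (0% of all genes), 0 had an unadjusted p below 0.05 (0.432% of all genes), and 0 were without overlap between groups (3.02% of all genes). The median change of the members was -0.26, against -0.0097 for all genes, with 34 of 40 lower, and 14 of 14 Lce1 genes lower by 0.11 to 0.50. Members moved together by library: of all 12 libraries, control 1 was highest in 13 of 14 Lce1 genes. The library labelled Trp53 het 3 was lowest in all 14. The part of these libraries in the counts of direction was not tested. In the double mutant against Llgl cKO, 0 were called (0% of all genes) and 6 had an unadjusted p below 0.05 (5.12% of all genes), all lower and all S100 fused-type rows: Tchhl1 (-3.56, adjusted p = 0.79), Crnn (-1.79, adjusted p = 0.89) and 4 Flg rows. The 4 Flg rows belong to the same gene, whose summed change was -0.13 (edgeR unadjusted p = 0.73). The groups did not overlap for 5 members, against 11% of all genes. The average Trp53 effect gave 0 calls (0% of all genes) and 1 member at an unadjusted p below 0.05, Tchhl1 (-1.99), against 2.17% of all genes. DESeq2 called 0 members in all 3.

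Along the complex, some members with estimated changes of opposite sign lay in the same stretch, though Sprr2h and Rptn did not pass the test. Between Sprr2d and Sprr2h lie Sprr2e and Sprr2g, at 271.9 and 293.6 kb from Lor, with positive changes (1.57 and 1.44) that did not pass. A relation between change and position was not tested. Of the tested members, 36 have a position, among them Sprr2d, 258.9 kb from Lor, and Sprr2h, 305.4 kb from it, and likewise Rptn (0.81, at 1313.4 kb) and Tchhl1 (-3.94, at 1388.5 kb). The 4 tested Lce3 genes, with positive changes of which 0 passed, lie between Lce1l at 769.7 kb and Lce1m (-0.27) at 937.5 kb.

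**Figure D5:**
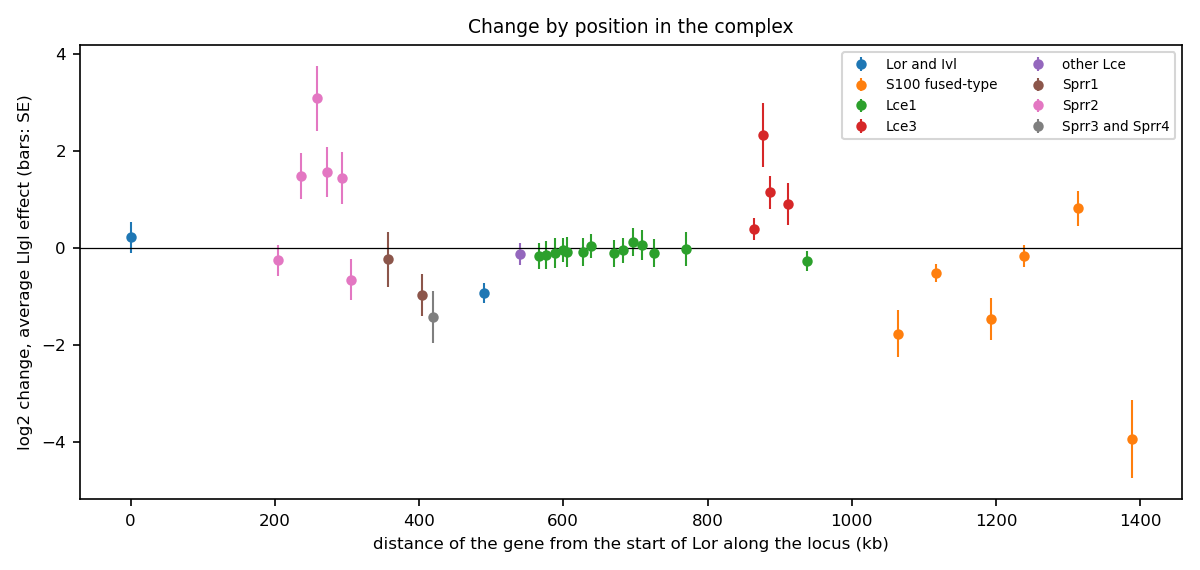
Log2 change in the average Llgl effect, with bars of 1 SE, against distance from the start of Lor in kb, for the 36 tested members with a position, coloured by family. The Lce1 genes form a flat row near 0 from 566.3 to 769.7 kb, with changes above 0 in the Lce3 genes to their right and both directions among the Sprr2 genes and at the far end.

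Other genes of the same pathway were counted by list, against 2.15% of all genes called lower and 1.18% called higher in the average Llgl effect. Of 18 tested further genes of the locus, 0 were called higher and 4 lower in the average Llgl effect, with a median of -0.36: Tchh (trichohyalin, -2.95, adjusted p = 0.014), S100a7a (-3.10, adjusted p = 0.025) and, named after their values were seen, Prr9 (-3.29, adjusted p = 0.026) and S100a3 (-2.36, adjusted p = 0.028). Tchh and S100a3 are hair genes, and Tchh is also among the hair markers that fell. Of 14 envelope cross-linkers and scaffold genes 0 were called, with Cst6, a protease inhibitor, at -0.95 (adjusted p = 0.19) and the desmosomal cadherin Dsc1 at -0.29 (adjusted p = 0.34). Of 12 filaggrin processing genes 1 was called lower, Padi3, a peptidylarginine deiminase of the hair follicle and upper epidermis (-2.15, adjusted p = 0.025), and all 12 had negative changes, Lipn at -0.97 (adjusted p = 0.081). Without control 3 and the library labelled Trp53 het 3, those called lower were 10 of the 18 locus genes, 1 of the 14 cross-linkers and scaffold genes (Cst6, -1.32, adjusted p = 0.00098, and 0.043 without control 3 alone) and 6 of the 12 filaggrin processing genes (among them Lipn, -1.28, adjusted p = 0.00034), with 0 called higher, against 15.8% of all genes called. Lipn also passed with the replicate block (-0.89, adjusted p = 0.043). Padi3, S100a7a, Prr9 and S100a3 each lost their call on leaving out any 1 of the same 8 libraries as Tchhl1, with adjusted p up to 0.080, and Tchh kept it.

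Of 26 regulators of terminal differentiation 1 was called higher, the chromatin organiser Satb1, at 72.4 to 95.2 CPM in the libraries with intact Llgl and 93.0 to 144 in the Llgl libraries (0.51, adjusted p = 0.022, and up to 0.067 on leaving out any 1 of 7 libraries: control 2, Llgl cKO 1, Llgl cKO 3, Trp53 het 1, Trp53 het 2, double mutant 2 or double mutant 3); the vitamin D receptor gene Vdr changed by -0.54 (adjusted p = 0.057). Of 9 suprabasal genes 0 were called (Krt77 -1.16, adjusted p = 0.064; Krt80 -0.49, adjusted p = 0.31), of 10 basal genes 0 (Lama5 0.43, adjusted p = 0.11; Col7a1 -0.34, adjusted p = 0.37) and of 8 stress keratinocyte genes 0 (Krt6a -1.29, adjusted p = 0.16; Krt16 0.43, adjusted p = 0.33). Without control 3 and the library labelled Trp53 het 3, more of these passed, against 15.8% of all genes: Vdr (-0.62, adjusted p = 0.016) and Prdm1 of the regulators, both lower, Krt77 (-1.48, adjusted p = 0.00028) and Krt80 (-0.77, adjusted p = 0.0033) of the suprabasal genes, Krt6a (-1.73, adjusted p = 0.00080) of the stress genes, and Lama5 (0.52, adjusted p = 0.037), Col7a1 (-0.58, adjusted p = 0.0016) and Col17a1 of the basal genes, Prdm1 and Col17a1 being named after their values were seen. With the replicate block Vdr (-0.54, adjusted p = 0.030) and Krt6a (-1.07, adjusted p = 0.024) passed.

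Markers of other cells the tissue could hold were counted in the same way. Of all genes, 2.15% were called lower and 1.18% higher. Sebaceous markers were called lower in 5 of 8, T cell markers in 2 of 7 and adipocyte markers in 2 of 2, while 0 of 5 fibroblast, 0 of 5 melanocyte and 0 of 6 Langerhans cell and macrophage markers were called. Summed fibroblast markers stood at 27.8 to 143 CPM in control and 32.6 to 139 in Trp53 het, against 122 to 210 in Llgl cKO and 173 to 239 in the double mutant. The tested fibroblast markers were split: Dcn (1.67), Col1a2 (0.60) and Pdgfra (0.18) were higher, Col1a1 (-0.90) and Col3a1 (-1.01) lower. Without control 3 and the library labelled Trp53 het 3, 2 of 5 fibroblast markers (Dcn and Col1a2) were called higher, and 8 of 8 sebaceous and 6 of 7 T cell markers lower. In that fit 15.8% of all genes were called. The part of these cells in the members' values was not tested. Krt13, of internal stratified epithelium, was the 1 of 3 called higher there, from 0.145 to 0.725 CPM with intact Llgl to 1.14 to 3.42 CPM without. None of 6 mitochondrial genes was called, and summed endothelial markers stood at 0.491 to 1.37 CPM.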

How the data were processed

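Whole-number read counts per gene for 12 libraries were used as deposited by the authors. Per the labels' protocols, stranded mRNA libraries were prepared from DNase-treated total RNA. The submitters' processing notes name STAR, featureCounts 1.6.4, DESeq2 2.11.40.8 and GRCm38; annotation release, strand setting, multimapping and filters are not given in the sources used here.

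Counts were tested with edgeR 4.0.16 in R 4.3.3 (TMM, filterByExpr with a minimum count of 10, robust quasi-likelihood, group means, 8 residual degrees of freedom), Benjamini-Hochberg adjusted over 14582 genes and called below 0.05. The biological coefficient of variation was 23.8%. All 4 groups shared 1 fit, and the 8 comparisons are contrasts of it, several of which share libraries. Intervals and SEs cover the spread between libraries. The fit was tested on simulated data. DESeq2 1.42.0, other scalings and filters, a replicate block and leaving out libraries were alternatives. Summing the Flg rows was added after seeing the data.

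Members, lists and tests were chosen with earlier results of these data known. Named members are all S100 fused-type genes, Lor, Ivl, the 3 most abundant of each Lce and Sprr family and all called members; from each other list, the 2 genes of smallest p. Others named were chosen after their values were seen. Replicate numbers come from the titles. Same-number correlations of deviations were 0.21 to 0.82 between control and Trp53 het and at most 0.18 between other groups. Control and Llgl cKO libraries, at 0.069 to 0.13, still all correlated best with their own number. Member promoters and lengths were matched by symbol to RefSeq GRCm38.p6 and GENCODE M21.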

Additional observations from a re-analysis of the deposited data

How the results depend on the processing

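Counts of called members depended on the fit, as did the share of all genes called, given in parentheses. In the average Llgl effect the 4 calls (3.33%) became 11 (5.83%) with DESeq2, 1 (1.42%) with no low-count filter, 14 (15.8%) without control 3 and the library labelled Trp53 het 3, and 0 to 5 (1.1% to 4.69%) on leaving out 1 library at a time. It was 0 when double mutant 2, Trp53 het 2, Llgl cKO 1, control 2 or control 1 was left out, and 1 without Trp53 het 1 or double mutant 3. For Llgl cKO against control the 0 calls became 1 (0.668%) with DESeq2, 1 (0.215%) with only the groups compared, 2 (2.8%) without that pair of libraries and 0 to 1 leaving out 1 library. For the double mutant against Trp53 het they became 10 (4.33%), against control 5 (3.88%) with DESeq2, and 8 (7.37%) and 9 (7.72%) without the pair; leaving out 1 library gave 0 to 3 in both. The other 4 comparisons gave 0 under every alternative run.

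With the replicate block the average Llgl effect gave 5 calls (4.55%), the double mutant against Trp53 het 4 (2.58%) and against control 3 (2.38%), and the paired Trp53 het against control 0. The block brought Crnn, Vdr, Krt6a and Lipn past the threshold. Same-numbered libraries of control and Llgl cKO correlated at 0.069 to 0.13, and all 6 correlated best with their own number; in the double mutant this held for 1 to 3 of 6 against each other group.

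Tchhl1, Ivl, Sprr2d and Flg row ENSMUSG00000102395 kept their direction under all alternatives run. The calls were lost in 9 of 21 alternatives for Tchhl1, 10 of 21 for Ivl, 11 of 21 for Sprr2d and 7 of 20 for the Flg row, with adjusted p up to 0.10, 0.090, 0.12 and 0.091. Changes near 0 turned sign: Lce1a2 to 0.025 and Sprr1b to 0.097 with the replicate block, Lce1a2 to 0.11, Sprr1b to 0.081, Lce1a1 to 0.021 and Lce6a to 0.017 without control 1, Lce1a2 to 0.034 without Trp53 het 1, and Lor to -0.068 without the pair. With 1 library left out, lowest and highest changes were -0.33 and 0.021 for Lce1a1, -0.28 and 0.11 for Lce1a2, -0.28 and 0.017 for Lce6a and -0.61 and 0.081 for Sprr1b. The cause was not tested. The 3 libraries a group limit the precision, and members under 1 CPM rest on few reads.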
